A study of Saccharomyces cerevisiae with 8 samples.

Results

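The replicative helicase of budding yeast is built from the MCM2 to MCM7 ring, CDC45 and the GINS complex, and 10 of its genes were examined here: MCM2, MCM3, MCM4, MCM5, MCM6, MCM7, CDC45, SLD5, PSF1 and PSF2. They were chosen by gene name from the 6600 protein-coding genes counted. All 10 passed the filter on low counts. The GINS gene PSF3 is not among the 10 and is described with the other replication genes.

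The data were ribosome profiling libraries, in which mRNA fragments shielded by ribosomes (ribosome protected fragments, RPFs) are sequenced, so that each count reports translating ribosomes on a gene. Saccharomyces cerevisiae strains of FY4/S288C background, each carrying a GFP and KanMX reporter, had evolved under glutamine limitation and had gained extra copies of the GAP1 locus on chromosome XI. Trans, isolated after 150 generations, has a transposon mediated duplication with a further amplification on chromosome V. ODIRA_A, from generation 150, and ODIRA_B, from generation 250, each have a triplication formed by origin-dependent inverted repeat amplification. ComQuad, from generation 250, has a triplication by that route and then a further, transposon mediated amplification of GAP1 alone. Each strain was grown as 2 biological replicates in a chemostat at 30 °C with 800 μM glutamine, with a doubling time of 5.8 h, for 24 h of continuous flow. Each strain is 1 isolated lineage, so its amplification, its time of isolation and its small variants cannot be told apart. The p-values rest on the spread between replicate cultures, estimated in 1 fit of all strains, and not on a spread between lineages. The ancestor and the RNA-seq were not analysed here. Library depth ran from 3723082 RPFs on coding sequence, in ODIRA_B, to 11459498, in ComQuad. None of the 10 genes lies in the amplified regions of chromosomes V and XI.

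The MCM2 to MCM7 proteins are loaded onto origins in G1 as an inactive ring around double-stranded DNA. Kinases then recruit Cdc45 and GINS, and the assembled CMG complex unwinds DNA ahead of the polymerases during S phase. Transcription of many replication genes in this yeast is periodic: the ECB element, bound by Mcm1 with the repressors Yox1 and Yhp1, acts at the transition from M to G1, and the MCB element, bound by Mbp1 and Swi6, acts at the transition from G1 to S.

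CDC45 is the member that differs in sequence between the strains. ComQuad alone carries a deletion of 42 bases inside it. The gene (YLR103C) lies on the minus strand of chromosome XII at chrXII:343989-345941 in the R64 assembly, as 1 coding exon of 1953 bases, and the deleted bases were located by matching them to that assembly at chrXII:345381-345422. The sequence is shown, read along the gene, because the deletion keeps the reading frame and its last bases repeat those just before it. Capitals mark the bases absent from ComQuad, with 30 reference bases on each side.
CDC45, chrXII:345351-345452, minus strand: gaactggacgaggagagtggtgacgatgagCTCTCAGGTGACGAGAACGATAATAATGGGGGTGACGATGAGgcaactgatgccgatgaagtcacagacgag

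The deletion spans coding positions 520 to 561 and removes whole codons, 174 to 187. Of these 14 codons, 6 encode aspartate or glutamate. The last 12 deleted bases, GGTGACGATGAG, are the same as the 12 bases just upstream of the deletion. It shortens the coding sequence by 2.15%, to 1911 bases.

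Short sequence matches before the start codons are shown because replication genes are known to be transcribed through these elements. In the 300 bases before each start codon, on both strands, the ECB letters TTNCCNNNTNNGGNAA occurred in 4 of the 10 members, MCM3, MCM5, MCM6 and MCM7, and in 52 of 6571 genes, or 0.791%. The MCB letters ACGCGT occurred in CDC45 alone of the 10 members, at 2 places, and in 219 of 6571 genes, or 3.33%. The matches are in capitals, read along the strand of the gene in the R64 assembly. The MCM3 match fits the ECB letters on the opposite strand, so it shows here as their reverse complement.
MCM3, chrV:86745-86774, plus strand: aattactTTTCCTAAATGGGTAAaaactcg
MCM5, chrXII:691394-691423, plus strand: tggcgtgTTTCCCTTTTAGGAAAagtgatt
MCM6, chrVII:121063-121092, minus strand: tattaaaTTTCCTTTTTAGGAAAagcgcct
MCM7, chrII:625552-625581, plus strand: aaggaaaTTTCCTTATAAGGAAAataaatg
CDC45, chrXII:346104-346133, minus strand: gtttcattcacgACGCGTatttttttttca
CDC45, chrXII:346074-346103, minus strand: acatatcatctaACGCGTtttaagaaattt

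The ECB matches begin 154 to 213 bases before the start codon, and the MCB matches of CDC45 begin 180 and 150 bases before it. MCM2, MCM4, SLD5, PSF1 and PSF2 held neither string of letters in this window. A match is a description of the letters and does not show that a factor binds there.

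ComQuad was the strain in which the helicase genes stood apart. All 6 MCM genes, CDC45 and PSF1 were higher in ComQuad than in the mean of the other 3 strains, by 1.43-fold to 1.80-fold, while SLD5 and PSF2 did not pass the test. In all, 8 of 10 members were called higher and 0 lower at an adjusted p of 0.05, with the quasi-likelihood test of edgeR and Benjamini-Hochberg adjustment over 5725 genes. DESeq2 and the unadjusted p gave the same counts. Over all tested genes 16.9% were called higher in the same comparison. The median log2 difference was 0.57 over the 10 members and -0.01 over all tested genes.

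RPF abundance is given below as CPM, the read count scaled to library size with TMM factors, with replicate 1 before replicate 2. MCM3 encodes the ring subunit that contacts the loading machinery. Its CPM was 148 and 159.5 in Trans, 139 and 144 in ODIRA_A, 159 and 173 in ODIRA_B, and 273 and 264 in ComQuad. Both ComQuad libraries lay far above the other 6, of which Trans and ODIRA_B overlapped and ODIRA_A lay below both. The means were 269 ± 6.67 CPM (SD, n = 2) in ComQuad and 154 ± 12.4 (SD, n = 6) in the other libraries. MCM3 rose 1.75-fold in ComQuad (log2 difference 0.81 ± 0.09 SE, adjusted p = 4.6e-05 in edgeR).

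CDC45 encodes the protein that joins the ring to make the helicase active. Its CPM was 25.2 and 28.2 in Trans, 22.2 and 27.3 in ODIRA_A, 20.3 and 26.6 in ODIRA_B, and 47.6 and 42.0 in ComQuad. Both ComQuad libraries lay above all others, and the other 3 strains overlapped one another. These rest on 73 reads in ODIRA_B replicate 1, the fewest of any library, and 573 in ComQuad replicate 1, the most. The gene with the deletion rose 1.80-fold in ComQuad, with a 95% interval of 1.47-fold to 2.21-fold (log2 difference 0.85 ± 0.13 SE, adjusted p = 0.0007 in edgeR). The reads were aligned to a reference that holds the deleted bases, where ComQuad can give none. Scaling its CDC45 counts for the shorter coding sequence gave a log2 difference of 0.88.

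MCM2, MCM4 and MCM6 belong to the same ring, in which MCM4 and MCM6 with MCM7 can unwind DNA on their own in vitro. MCM2 stood at 62.7 and 63.7 CPM in Trans, 54.8 and 64.6 in ODIRA_A, 68.6 and 64.6 in ODIRA_B, and 87.5 and 93.4 in ComQuad. MCM4 stood at 86.6 and 104 in Trans, 88.3 and 82.4 in ODIRA_A, 97.7 and 94.5 in ODIRA_B, and 133 and 144 in ComQuad. MCM6 stood at 71.5 and 67.0 in Trans, 70.7 and 68.5 in ODIRA_A, 74.4 and 80.8 in ODIRA_B, and 109 and 108 in ComQuad. For each of these 3 genes ComQuad lay above every other library, with a gap wider than the spread within any strain for MCM2, MCM4 and MCM6 alike. Their log2 differences were 0.52 for MCM2, 0.59 for MCM4 and 0.59 for MCM6, with adjusted p of 0.0028, 0.0011 and 0.00059 in edgeR.

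MCM5 forms with MCM2 the gate through which DNA enters the ring. It stood at 77.8 and 83.9 CPM in Trans, 77.8 and 75.6 in ODIRA_A, 95.7 and 109 in ODIRA_B, and 134 and 116 in ComQuad. MCM7 stood at 114 and 124 in Trans, 109.6 and 110.1 in ODIRA_A, 135 and 146 in ODIRA_B, and 175 and 179.6 in ComQuad. In both genes ODIRA_B was the next highest strain, with its libraries above those of Trans and ODIRA_A. The share of all tested genes with that order was not computed. Trans against ODIRA_B did not pass, with adjusted p of 0.096 for MCM5 and 0.16 for MCM7 in edgeR. ODIRA_A against ODIRA_B passed in edgeR, at 0.044 and 0.046, but not in DESeq2. The log2 differences in ComQuad were 0.54 for MCM5 and 0.53 for MCM7, with adjusted p of 0.0018 and 0.00092 in edgeR.

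**Figure D1:**
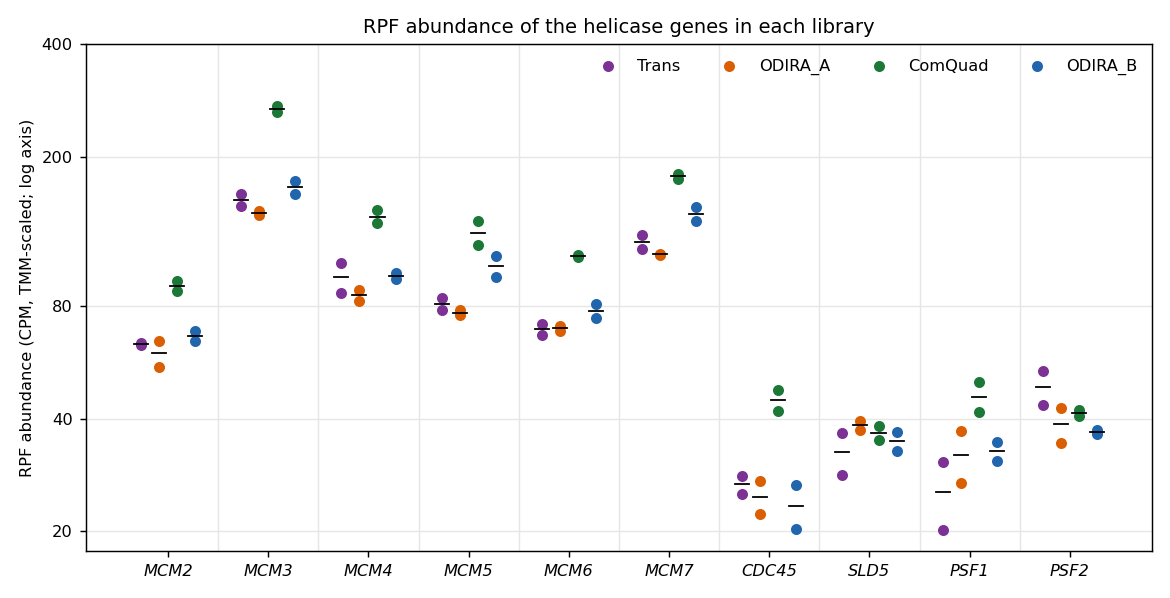
RPF abundance of the 10 helicase genes in each of the 8 libraries, in CPM on a log axis, with 1 point per library, colours for the strains and a black line for the mean of 2 replicates. Both ComQuad points lie above the other 6 for MCM2 to MCM7, CDC45 and PSF1, and within the range of the others for SLD5 and PSF2.

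GINS is a complex of 4 different subunits in equal number, and 1 of the 3 examined here passed the test. PSF1 stood at 30.7 and 20.2 CPM in Trans, 26.9 and 37.0 in ODIRA_A, 30.8 and 34.7 in ODIRA_B, and 50.0 and 41.6 in ComQuad. Both ComQuad libraries were the highest, but the replicates of Trans and ODIRA_A were far apart. PSF1 was 1.53-fold higher in ComQuad, with a 95% interval of 1.18-fold to 1.99-fold (log2 difference 0.62, adjusted p = 0.017 in edgeR). SLD5 stood at 36.7 and 28.3 CPM in Trans, 39.4 and 37.3 in ODIRA_A, 32.7 and 36.9 in ODIRA_B, and 38.3 and 35.0 in ComQuad. The ComQuad values fell inside the range of the others. Its fold in ComQuad was 1.04, with a 95% interval of 0.86 to 1.27 (log2 difference 0.06, adjusted p = 0.74 in edgeR). PSF2 stood at 43.5 and 53.7 CPM in Trans, 42.7 and 34.5 in ODIRA_A, 37.2 and 36.3 in ODIRA_B, and 40.6 and 42.2 in ComQuad. Trans held the highest values and ComQuad again lay within the range of the rest. Its fold in ComQuad was 1.01, with a 95% interval of 0.83 to 1.23 (log2 difference 0.01, adjusted p = 0.95 in edgeR). Rises up to 1.27-fold in SLD5 and 1.23-fold in PSF2 lie within these intervals and are not excluded. Whether the subunits differ from each other in their change was not tested.

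The calls for MCM3, MCM4, MCM6, MCM7 and CDC45 in ComQuad held when any 1 library was left out. Without ComQuad replicate 1 the adjusted p was 0.072 for MCM5 and 0.23 for PSF1, and without ComQuad replicate 2 it was 0.062 for MCM2 and 0.052 for PSF1. PSF1 also reached only 0.055 without ODIRA_B replicate 1. Both ComQuad libraries lay above the 6 others for 8 of 10 members, which was true of 17.9% of all tested genes. RPF abundance is an average over all cells of a culture, so a larger share of cells in the phase that expresses a gene and more RPFs per such cell cannot be told apart, nor can more mRNA and more translation of it.

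The other strains showed less. Against the mean of the other 3 strains, ODIRA_A was called lower for 4 of 10 members, against 12.5% of all tested genes called lower. The genes were MCM3, MCM4, MCM5 and MCM7, with log2 differences of -0.42, -0.34, -0.40 and -0.39 and adjusted p of 0.0083, 0.038, 0.02 and 0.013. These calls were lost when either ODIRA_A library was left out, with 0 of 10 members called in each case, although 5 of 10 had an unadjusted p under 0.05 in each. Without ComQuad replicate 1 or ODIRA_B replicate 2, 2 of 10 were called. The mean that ODIRA_A was set against contains ComQuad, where the same genes were high. Trans was called different for 0 of 10 members by edgeR and by DESeq2, with 15.2% of all tested genes called by edgeR. At an unadjusted p under 0.05 there were 6 in Trans, with MCM3, MCM5, MCM6, MCM7 and PSF1 below the others and PSF2 above. The share of all tested genes under an unadjusted p of 0.05 was not computed, for this or any other comparison here. Without Trans replicate 1 the log2 difference was -0.32 for MCM6, -0.85 for PSF1 and 0.47 for PSF2. Without Trans replicate 2 the same differences were -0.23, -0.25 and 0.17. ODIRA_B was called different for 0 of 10 by edgeR and by DESeq2, with 18.5% of all tested genes called by edgeR, and at an unadjusted p under 0.05 there was 1, CDC45, with a log2 difference of -0.40 (95% interval -0.76 to -0.05). That difference was -0.23 without ODIRA_B replicate 1 and -0.62 without ODIRA_B replicate 2, and no member had an unadjusted p under 0.05 in DESeq2 or without ODIRA_A replicate 2.

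**Figure D2:**
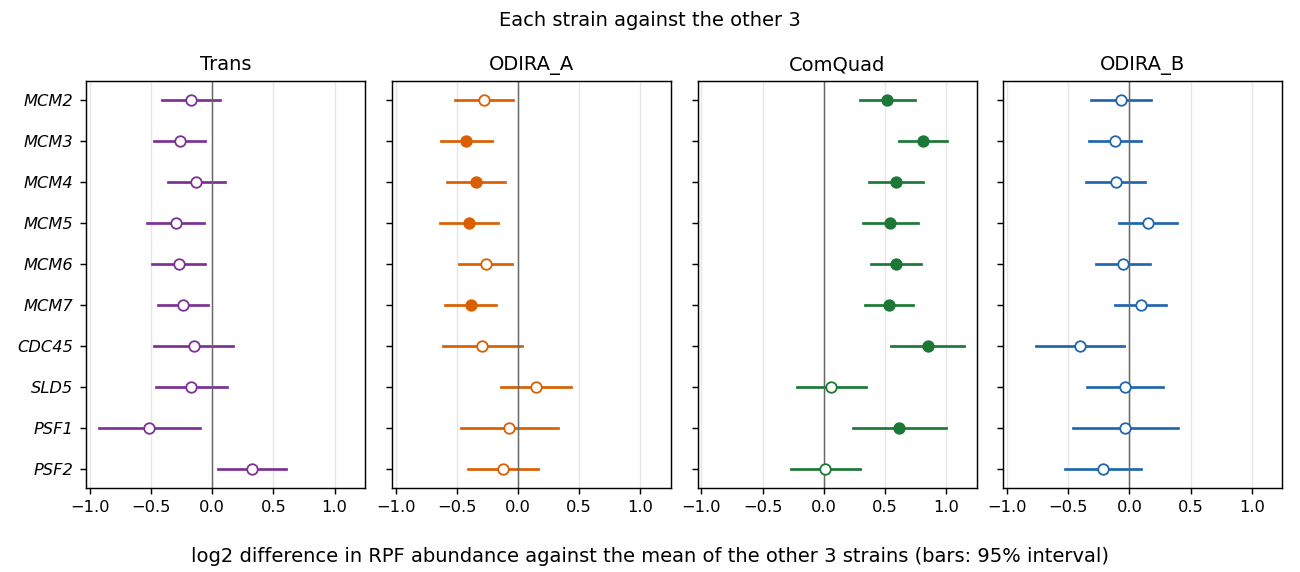
Log2 difference in RPF abundance of each helicase gene between 1 strain and the mean of the other 3, with 1 panel per strain and bars for the 95% interval. Filled points passed an adjusted p of 0.05 in edgeR, which 8 of 10 genes did in ComQuad, 4 of 10 in ODIRA_A and 0 of 10 in Trans and ODIRA_B.

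A test of any difference among the 4 strains called 8 of 10 members, against 43.5% of all tested genes, and left out SLD5 (adjusted p = 0.55 in edgeR) and PSF2 (adjusted p = 0.18 in edgeR). Between single strains, 8 of 10 members were lower in Trans than in ComQuad, where 14.5% of all tested genes were lower. In ODIRA_A 7 of 10 were lower than in ComQuad, against 16.4% of all tested genes, and PSF1 was the member lost. In ComQuad 5 of 10 were higher than in ODIRA_B, the other strain of generation 250, against 9.9% of all tested genes, and DESeq2 called 4. MCM5, MCM7 and PSF1 did not pass there, with folds of 1.22, 1.26 and 1.40 and adjusted p of 0.12, 0.055 and 0.14 in edgeR. ODIRA_A was lower than ODIRA_B for 2 of 10 members, MCM5 and MCM7, against 12.4% of all tested genes, and DESeq2 called 0 of 10. Leaving out either ODIRA_A library also took both calls away. Trans against ODIRA_A gave 0 of 10 calls in edgeR and DESeq2, also without adjustment, with 3.65% of all tested genes called by edgeR. Trans against ODIRA_B gave 0 of 10 in both tools, with 18.7% of all tested genes called by edgeR. At an unadjusted p under 0.05 there were 2 there, with no share of all tested genes computed: MCM5, with a log2 difference of -0.34, and PSF2, with 0.40. These comparisons share libraries and are not independent of each other. Without ComQuad replicate 1 or ComQuad replicate 2, 5 of 10 members differed among the 4 strains, and the calls between single strains fell from 22 of 60 to 12 and 14.

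Levels can be compared between genes per length of coding sequence, in TPM, which divides counts by coding length and scales each library to the same sum. On that scale CDC45 was the lowest of the 10 genes in all 8 libraries, with a mean of 11.4 TPM. MCM2 and MCM6 followed, with means of 19.8 and 19.7 TPM, and exchanged places between libraries. PSF2 and MCM3 led with means of 47.4 and 46.4 TPM, and then came PSF1 at 40.2, MCM7 at 39.8, MCM5 at 30.6, SLD5 at 29.7 and MCM4 at 27.4. In both ComQuad libraries MCM3 was first and PSF2 was only behind MCM3, PSF1 and MCM7, while PSF2 was first in both Trans libraries. In the other strains first place changed between replicates, from PSF2 to PSF1 in ODIRA_A and from PSF2 to MCM3 in ODIRA_B. The places of MCM7, PSF1, SLD5, MCM5 and MCM4 also changed between replicates of a strain. MCM3 was above MCM2 and MCM6 in every library. The 6 proteins stand in equal number in the ring. The highest of their 6 TPM values was 2.79 and 2.56 times the lowest in the ComQuad libraries and 2.16 to 2.49 times in the others.

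Relative to the ring genes, SLD5 and PSF2 were lower in ComQuad. Their own folds in CPM there were 1.04 and 1.01, so the lower ratios follow the rise of the ring genes. Any gene that did not change would fall on this ratio. The geometric mean TPM of MCM2 to MCM7 was 41.5 and 40.0 in ComQuad and between 23.5 and 28.0 in the other 6 libraries. Within the ring, MCM3 over that mean was 1.78 and 1.73 in ComQuad and 1.46 to 1.55 elsewhere, while the other ring genes overlapped. SLD5 over that mean was 0.823 and 0.754 in ComQuad and 0.908 to 1.40 elsewhere, with no overlap. PSF2 over that mean was 1.20 and 1.25 in ComQuad and 1.45 to 2.38 elsewhere, again with no overlap. CDC45 over the same mean was 0.464 and 0.410 in ComQuad and overlapped the other libraries, which ran from 0.279 to 0.432. PSF1 also overlapped, with 1.51 and 1.27 in ComQuad and 0.915 to 1.83 elsewhere. No test was made of these ratios, and the share of all genes with a lower ratio in ComQuad was not computed.

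**Figure D3:**
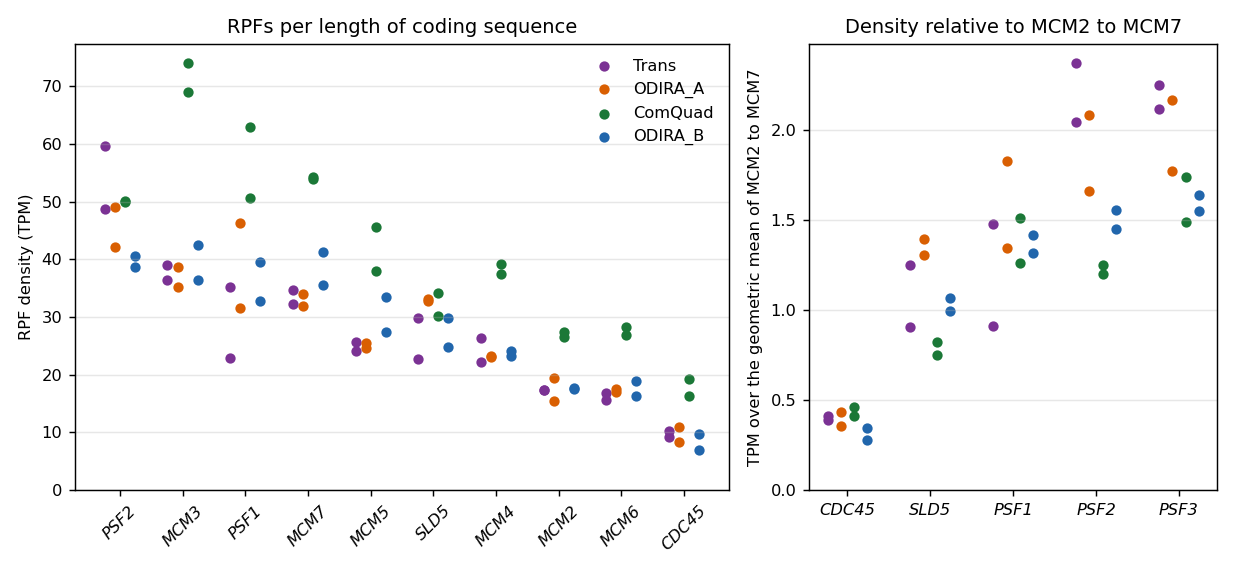
Left, RPF density of the 10 genes in TPM, in order of their mean, with 1 point per library. Right, the TPM of CDC45 and the GINS genes divided by the geometric mean TPM of MCM2 to MCM7, where the ComQuad points of SLD5 (0.754 and 0.823) and PSF2 (1.20 and 1.25) lie below all others. Any gene that did not change would also fall on this ratio in ComQuad.

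Across the 8 libraries the ring genes followed each other, as a description over 4 strains of 2 replicates in which libraries of a strain share their state. Pearson's r of log2 CPM between pairs of MCM2 to MCM7 ran from 0.83 to 0.97 over 15 pairs, and between CDC45 and these genes from 0.74 to 0.91. Both ComQuad libraries were the highest for each of these genes, and r without them was not computed. Values of r this high were not particular to the helicase. By r with CDC45, the ring genes ranked from 73 (MCM3) to 516 (MCM5) among the tested genes. By r with the mean of MCM2 to MCM7, CDC45 ranked 369. PSF1 had r of 0.50 to 0.80 with the ring genes. SLD5 had r of -0.13 to 0.28 and PSF2 of -0.14 to 0.24. Outside the members, the genes most like the mean of MCM2 to MCM7 were HHT2, which encodes histone H3 (r = 0.99), DSF2 (r = 0.99), CIN8, which encodes a kinesin motor of the spindle (r = 0.99), NPR1, a protein kinase gene (r = 0.99), and SKG6 (r = 0.99). The genes most like CDC45 were EMP70 (r = 0.98), ESP1, which encodes separase (r = 0.98), MFB1 (r = 0.97), RPB9, which encodes a subunit of RNA polymerase II (r = 0.97), and SPT21 (r = 0.97).

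Among the rest of the replication machinery, more genes were called higher than lower in ComQuad. Of 46 replication genes outside the members, 23 were called higher and 5 lower by edgeR, against 16.9% higher and 16.9% lower over all tested genes, and their median log2 difference was 0.37. Without ComQuad replicate 1 fewer of these genes were called, and so were fewer of all tested genes. PSF3, the GINS gene outside the members, was called higher, with a log2 difference of 0.36 (adjusted p = 0.045 in edgeR). Its CPM was 41.0 and 46.4 in Trans, 33.2 and 41.0 in ODIRA_A, 33.9 and 37.5 in ODIRA_B, and 53.5 and 45.7 in ComQuad, so that Trans and ComQuad overlapped.

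Genes of origin recognition and helicase loading were mixed, with 2 of 8 called higher and 2 of 8 lower. The shares over all tested genes were 16.9% higher and 16.9% lower, here and for the lists that follow. CDC6, an ATPase that loads the ring, rose by 0.96 on the log2 scale, while TAH11, which encodes its loading partner Cdt1, fell by 0.96. ORC5, a subunit of the origin recognition complex, fell by 0.56. Of 7 genes of helicase activation 3 were called higher: DBF4, the regulatory subunit of the kinase that acts on the ring, at 0.66, SLD2, at 0.60, and SLD3, at 0.41. SLD2 and SLD3 encode kinase targets that help to bring Cdc45 and GINS to origins. Of 4 fork protection genes 3 were called higher, with MRC1 at 0.85, TOF1 at 0.72 and CTF4, which ties GINS to polymerase alpha, at 0.47.

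Of 11 genes of DNA polymerases and primase 5 were called higher. The largest differences were those of DPB2, the polymerase epsilon subunit that contacts GINS, at 1.16, POL1, the catalytic subunit of polymerase alpha, at 1.09, and PRI2, a primase subunit, at 0.95. Of 11 genes of the clamp, clamp loader, RPA and Okazaki fragment processing 8 were called higher, led by POL30, which encodes the sliding clamp PCNA, at 0.93, the flap nuclease gene RAD27 at 0.72 and the ligase gene CDC9 at 0.68. All 4 ribonucleotide reductase genes were called. RNR1, the large subunit expressed in cycling cells, rose by 1.14, while RNR3, the large subunit induced by DNA damage, fell by 1.06 and RNR2, a small subunit, fell by 0.65. No gene was called lower in the lists of activation, fork protection, polymerases and clamp.

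**Figure D4:**
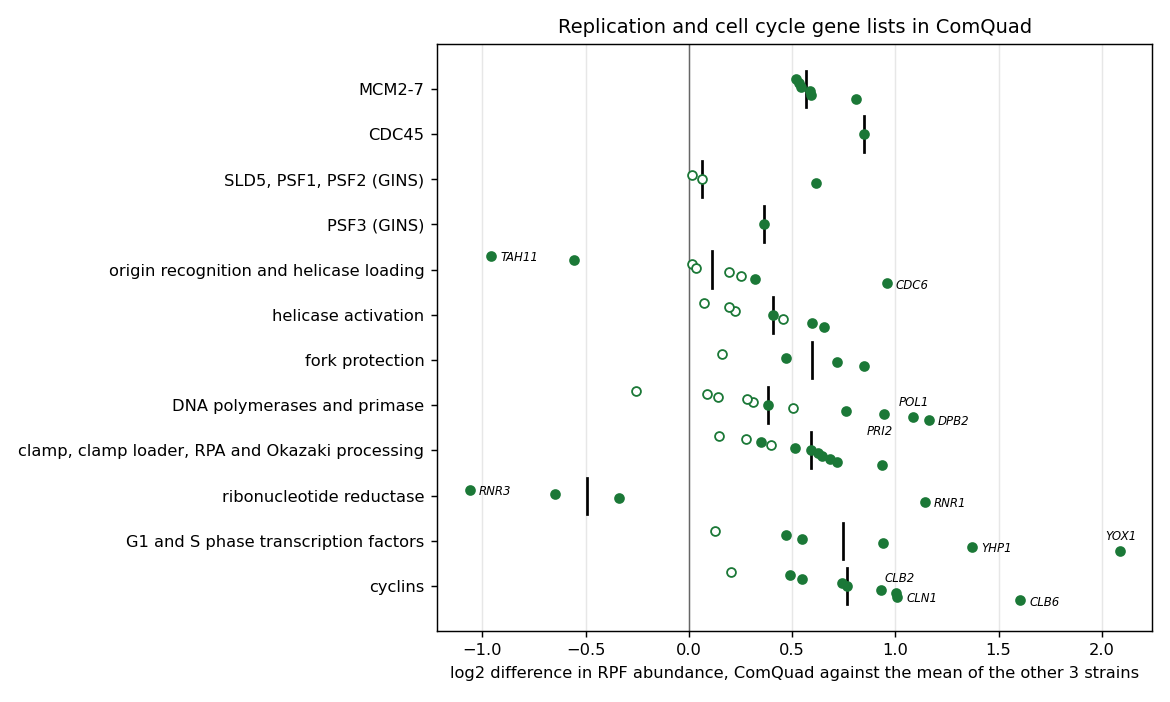
Log2 difference in RPF abundance between ComQuad and the mean of the other 3 strains for each gene of the helicase, replication and cell cycle lists, with 1 point per gene, filled where the adjusted p in edgeR was under 0.05, and a black line at the median of each list. The points lie mostly above 0, and TAH11, ORC5, RNR2, RNR3 and RNR4 are the filled points below it.

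Regulators of the periodic transcription of these genes also differed. For comparison, 16.9% of all tested genes were called higher and 16.9% lower in ComQuad. Of 6 transcription factor genes 5 were called higher in ComQuad, among them YOX1 at 2.09 and YHP1 at 1.37, which encode the repressors at ECB elements, and SWI4 at 0.94, which encodes the DNA-binding subunit of the factor SBF. YOX1 stood at 145 and 138 CPM in ComQuad and 25.3 to 55.2 in the other 6 libraries. Of 9 cyclin genes 8 were called higher and 0 lower, led by the S phase cyclin gene CLB6 at 1.61, the G1 cyclin gene CLN1 at 1.01 and the mitotic cyclin gene CLB2 at 1.00. These cyclins mark different phases of the cycle, and their part in the helicase result was not tested. MCK1, a protein kinase gene of the GSK-3 family in which ComQuad carries a nonsense variant, stood at 92.3 and 111 CPM in ComQuad and 169.6 to 176 in the other 6 libraries, and fell by 0.77 on the log2 scale (adjusted p = 0.00022 in edgeR).

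The letters of the upstream elements can be set against these differences. Of 49 tested genes with the ECB letters 27 were called higher and 7 lower in ComQuad by edgeR, with a median log2 difference of 0.43, and 4 of the 49 are helicase genes. Without those 4, 23 of 45 were called higher, with a median of 0.41. Of 206 tested genes with the MCB letters 102 were called higher and 18 lower, with a median of 0.36. In percent, 55.1 were higher and 14.3 lower with the ECB letters, and 49.5 and 8.74 with the MCB letters. Over all tested genes 16.9% were called higher and 16.9% lower. Within the ring, MCM3, MCM5, MCM6 and MCM7, which hold the ECB letters, had log2 differences of 0.81, 0.54, 0.59 and 0.53. MCM2 and MCM4, which do not hold them, had 0.52 and 0.59, so the values overlapped. Outside the ring, CDC45, with the MCB letters, had 0.85. PSF1, SLD5 and PSF2, with neither string, had 0.62, 0.06 and 0.01. A link between the letters and the change was not tested. Of the GINS genes only PSF3 held either string, a copy of the MCB letters 85 bases before its start codon.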

How the data were processed

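Ribosome profiling libraries of 4 evolved strains, 2 replicates each, were analysed. The deposited values are whole-number counts of RPF reads on each feature of the Ensembl R64-1-1 annotation, without normalization. To make these counts the authors digested polysomes with RNase I, selected fragments by size, removed rRNA, tRNA and snRNA reads, aligned with STAR and counted reads on the strand of the feature with bedtools; the treatment of reads with several matches is not given in the sources used here. For each of 6600 genes, the reads on its CDS features (6913 in all) were added up.

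Genes with at least 10 reads in at least 2 libraries were kept (5725). Strains were compared in edgeR 4.0.16 under R 4.3.3 (TMM, robust quasi-likelihood F test, 4 residual degrees of freedom, common biological coefficient of variation 0.123), in 1 fit of all 8 libraries, with p-values adjusted by the Benjamini-Hochberg method over all 5725 genes. The script was tested on simulated data. CPM and TPM were computed from the same counts; a prior count of 2 was added for correlations. Replicates were closest in ComQuad and farthest apart in Trans, with log2 ratios between them that had an SD of 0.24 and 0.43 over 5725 genes. The 17 chromosomes of the reference genome have the lengths given in the tables. MCM3 overlaps YEL032C-A on the opposite strand, and no member overlaps a gene on its own strand.

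The members, gene lists, motifs and tests were chosen with earlier results of these data known. All members, PSF3 and MCK1 were named, and from each other list up to 3 genes with the largest difference in ComQuad among those called; RNR4 was added after its values were seen. The genes most like CDC45 or the ring are the 5 with the highest r. Alternatives were DESeq2 1.42.0, RLE scaling, TMM without the amplified regions, other count filters, counts on gene features, a replicate block, fits of only the 4 libraries compared, CDC45 counts scaled for the deletion, and each library left out.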

Additional observations from a re-analysis of the deposited data

How the results depend on the processing

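With no library left out, the numbers of members called in each strain against the others were 8, 0, 4 and 0 for ComQuad, Trans, ODIRA_A and ODIRA_B under DESeq2, RLE scaling, the other count filters, gene features, scaling without the amplified regions and the replicate block. CDC45 in ComQuad kept a log2 difference of 0.84 to 0.86 in these settings, 0.88 with its counts scaled for the deletion, and 0.75 to 0.94 with a library left out. Replicate numbers were not taken to pair the libraries: over 5725 genes, differences between replicates correlated at 0.12 to 0.17 among Trans, ODIRA_A and ODIRA_B but at -0.13 to -0.10 between ComQuad and each of them. With the number as a block, 20 of 60 tests between single strains were called in place of 22, 7 of 10 members in place of 8 differed among the strains, and CDC45 in ComQuad was at 0.86.

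With each library left out in turn, calls among the 10 members ran from 6 to 8 in ComQuad, 0 to 3 in Trans (3 without Trans replicate 1), 0 to 6 in ODIRA_A, and stayed at 0 in ODIRA_B. Calls between single strains ran from 12 to 29 of 60, members that differ among the strains from 5 to 9, and replication genes outside the members called in ComQuad from 14 to 33 of 46. The lowest of these 3 counts came without ComQuad replicate 1, and without ComQuad replicate 2 there were 14 calls between strains and 5 members. Differences near 0 changed sign in some of these fits: SLD5 ran from -0.37 to 0.0028 in Trans, -0.0051 to 0.13 in ComQuad and -0.14 to 0.037 in ODIRA_B, PSF1 from -0.32 to 0.13 in ODIRA_A and -0.13 to 0.077 in ODIRA_B, and PSF2 from -0.28 to 0.026 in ODIRA_A and -0.036 to 0.068 in ComQuad. The cause was not tested. Where 1 library of a strain remained, it was assumed to vary like the other strains. The share of all tested genes called in ComQuad also moved between these fits. The ranges of calls therefore do not show a change in the members alone.

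ODIRA_B is the shallowest strain, with 73 and 95 reads on CDC45, and 2 libraries per strain limit every comparison to differences well above the replicate spread.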
